A study of Mus musculus with 6 samples.

Results

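DNA repair genes of the Fanconi, recombination, mismatch and checkpoint pathways were followed in radial glial progenitors, which are the stem cells of the embryonic cortex. The group held 43 genes of 32285 in the table, named by symbol for their repair role, and all 43 were found. The choice was made with earlier results of these data known. By role, 12 act in homologous recombination, 11 in the Fanconi pathway, 6 in break sensing, end resection and DNA unwinding, 3 in mismatch repair, 5 in checkpoint signalling, 3 in end joining and 3 in base excision and strand break repair.

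Transcripts were measured by bulk RNA sequencing in 6 libraries, 3 per group, made from E10.5 neocortex of wild-type mice. Dissociated cells were plated, and about 2 h later GSK2837808A, an inhibitor of lactate dehydrogenase, or its solvent DMSO was added for about 24 h. The labelled inhibitor concentration of 100 mM is implausibly high for a culture medium and was not verified. About 1000 living (DAPI-) CD133+ cells per sample were sorted and amplified by the Smart-seq2 protocol, and the groups are called DMSO and GSK here. Nothing in the labels says whether replicates came from separate cultures or animals. The p-values therefore describe the spread among these 6 samples, and that spread may be technical.

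Homologous recombination mends a break in both DNA strands by copying the sister chromatid, and Brca1, Brca2, Palb2 and their partners assemble the protein filament that does so. The Fanconi proteins detect and unhook crosslinks between the strands, mismatch repair corrects copying errors, and the kinases Atm and Atr with Chek1 and Chek2 halt the cell cycle while damage persists. Many of these genes are transcribed mostly in late G1 and S phase, and loss of several of them in mice reduces the number of cortical progenitors.

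The libraries held 7187089 to 10224348 reads, 22879 to 25585 genes had a read in each, and limma tested 15073 genes, those averaging at least 10 normalised reads. Markers of cell division and of several cell types moved with the groups. Of all tested genes, 19.1% fell and 17.0% rose. Of the 14 proliferation markers, all 14 fell, and their summed level was 27133 to 28899 normalised reads in DMSO and 9940 to 10963 in GSK. Radial glial markers fell in 9 of 12 cases, from a sum of 23150 to 23973 to one of 12609 to 15660. Intermediate progenitor markers rose in 6 of 7 cases, and 4 of 10 neuronal markers rose while 1 fell. Red blood cell markers were tested in 9 of 10 cases, of which 8 rose, and their sum went from between 2461 and 21016 to between 186922 and 277396. Myeloid markers rose in 6 of 10 cases (97.9 to 372 against 617 to 1513), and endothelial sums were low in both groups (63.7 to 88.3). Of the mesenchymal markers, 2 of 7 fell (27218 to 34299 against 17012 to 26581), a share of 28.6% that rests on few genes. No listed marker was at 0 in every library. The part of these markers in the results below was not tested, and in bulk samples fewer cells of a type and less RNA per cell cannot be told apart.

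DNA repair transcripts were lower in GSK than in DMSO libraries across most of the group. Of the 43 genes, 32 fell and 0 rose at a limma adjusted p below 0.05, or 74.4%, where 19.1% of all tested genes fell, 17.0% rose and 36.1% were called in either direction. A fall of at least 1 on the log2 scale was called for 19 genes, against 6.91% of all tested genes. The median log2 fold change was -0.85, with single genes between -2.16 and 0.34, and the median over all tested genes was 0.01. Every GSK value lay below every DMSO value for 33 genes, a pattern found in 24.4% of tested genes, and 1 gene, Fancg, showed the opposite separation (22.8% of tested genes). The groups overlapped for the other 9, against 52.8% of tested genes.

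Summed over the 43 genes, the DMSO libraries held 14944, 15378 and 14490 normalised reads and the GSK libraries 8584, 8751 and 8525. The ranges did not overlap (exact permutation test, two-sided, p = 0.1, which is the lowest possible with 3 libraries against 3). Replicates were tighter in DMSO than in GSK, with a median SD over the genes of 0.11 and 0.20 on the log2 scale. GSK replicate 3 was the lowest of its group for 22 of the 43 genes and DMSO replicate 3 for 23.

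**Figure D1:**
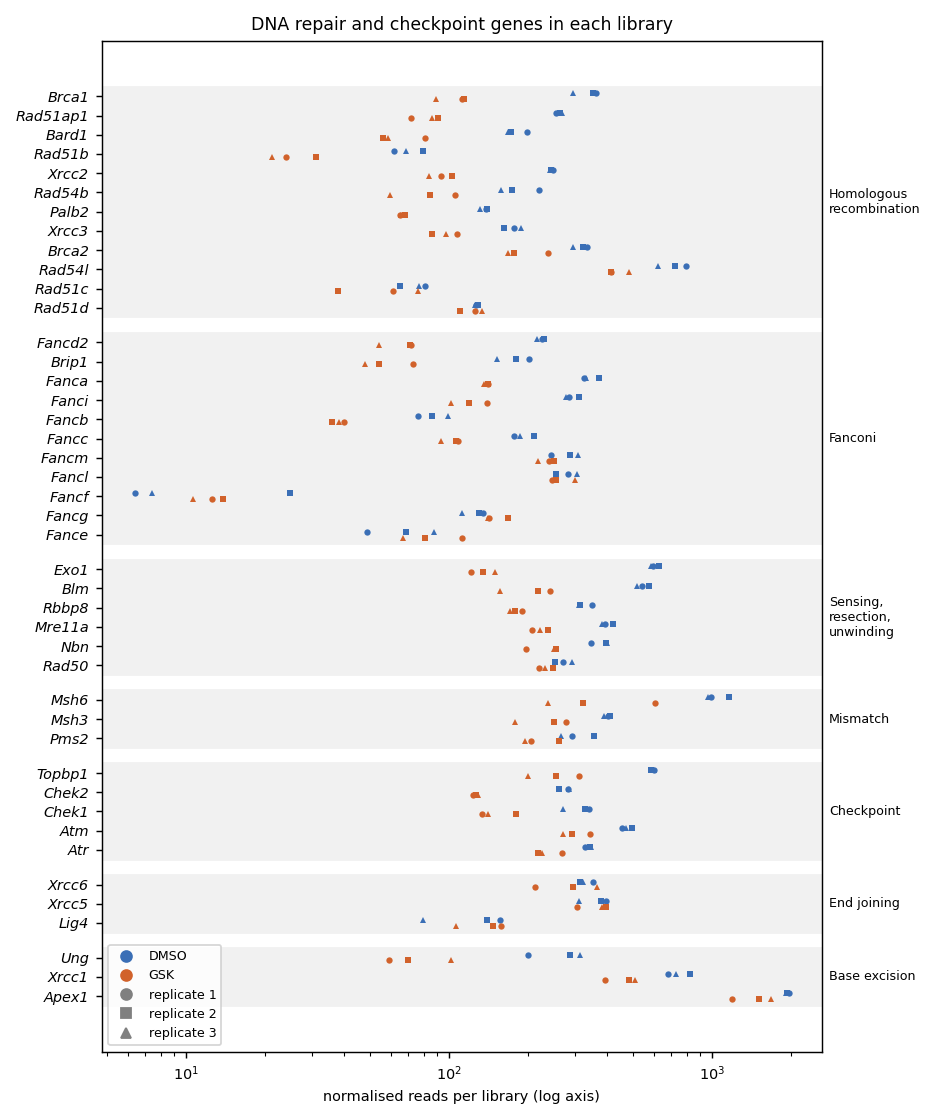
Normalised reads (log axis) of each of the 43 genes in each library, grouped by pathway, with DMSO in blue, GSK in orange and the replicate number as the symbol shape. The GSK points lie to the left of all DMSO points in 33 genes, while the 9 genes with overlapping groups are Rad51c, Rad51d, the 3 end joining genes and 4 Fanconi genes.

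Among the recombination genes, 10 of 12 fell, with a median log2 fold change of -1.09. The counts of falls by pathway, here and below, stand beside the 19.1% of all tested genes that fell. Brca1 (chr11:101488764-101551955, GRCm38, minus strand), whose ubiquitin ligase acts at resected breaks and stalled forks, had 361, 353 and 296 normalised reads in DMSO and 112, 114 and 89.1 in GSK. All GSK libraries were below all DMSO libraries, and Brca1 fell by 1.68 on the log2 scale (SE 0.16, limma adjusted p = 9.81e-08). Bard1, its obligate partner in the ligase, went from 197, 172 and 168 to 80.8, 56.0 and 58.4. The groups were apart, with a log2 fold change of -1.46 (SE 0.19, adjusted p = 4.29e-06). Palb2, which bridges Brca1 and Brca2, had 138, 139 and 131 normalised reads in DMSO and 64.9, 68.0 and 65.8 in GSK. Its replicates lay within a few reads of each other in both groups, and it fell by 1.03 (SE 0.18, adjusted p = 0.000129). Brca2, which works with Palb2 in strand exchange, fell less, from 334, 322 and 297 to 237, 177 and 167 (log2 fold change -0.73, SE 0.16, adjusted p = 0.00113).

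Genes that assist strand exchange also fell. Rad51ap1 (chr6:126923050-126939587, minus strand), a DNA-binding partner that stimulates strand invasion, had 254, 265 and 268 normalised reads in DMSO and 71.7, 91.0 and 85.9 in GSK. Its GSK mean was 31.6% of the DMSO mean, and it fell by 1.66 (SE 0.16, adjusted p = 1.29e-07). Rad54b, a DNA translocase, went from 219, 173 and 157 to 105, 84.5 and 59.4, and fell by 1.16 (SE 0.20, adjusted p = 0.000169). Of the exon length of Rad54b, 35.8% is shared with Fsbp on the same strand, a gene with 4.55 to 23.2 normalised reads, so reads there cannot be assigned to either gene with certainty. Its relative Rad54l, also a translocase, was the most abundant recombination gene of the group per kilobase and fell by 0.71 (SE 0.14, adjusted p = 0.000351), from 795, 726 and 624 to 412, 413 and 483.

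The 5 genes Rad51b, Rad51c, Rad51d, Xrcc2 and Xrcc3, whose related proteins form complexes that assist strand exchange, did not share a single pattern. Rad51b had 61.6, 79.9 and 68.8 normalised reads in DMSO and 23.9, 31.2 and 21.2 in GSK. It fell by 1.44 (SE 0.25, adjusted p = 0.000161), and the groups were apart. Xrcc2, with 248, 244 and 243 against 93.3, 103 and 83.8, fell by 1.39 (SE 0.16, adjusted p = 1.05e-06). Xrcc3 fell by 0.85 (SE 0.17, adjusted p = 0.000501), from 177, 162 and 188 to 107, 86.4 and 97.6. Rad51d and Rad51c did not pass the test, and their groups overlapped. Rad51d, the partner of Xrcc2 in the BCDX2 complex, had 127, 129 and 125 normalised reads in DMSO and 125, 110.3 and 133 in GSK (log2 fold change -0.06, 95% interval -0.40 to 0.29, limma adjusted p = 0.822). Rad51c, found in both of these complexes, had 80.7, 65.3 and 77.1 against 61.4, 37.7 and 76.4 (-0.39, interval -0.90 to 0.12, adjusted p = 0.223), and GSK replicate 2 was the low library. With limma array weights, whose estimation stopped before convergence, Rad51c was called, at -0.88 (adjusted p = 8.74e-05). Without GSK replicate 2 its log2 fold change was -0.11 (limma adjusted p = 0.775). The differences between these 5 genes were not tested.

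In the Fanconi pathway 6 of 11 genes fell and 5 did not pass, with a median of -0.89. Fancd2 and Fanci encode the clamp that is ubiquitinated at a crosslink. Fancd2 (chr6:113531682-113597017, plus strand) had 225, 229 and 215 normalised reads in DMSO and 71.7, 70.8 and 54.1 in GSK. Fancd2 fell by 1.76 (SE 0.17, adjusted p = 1.44e-07), the most in the pathway, and its GSK mean was 29.4% of the DMSO mean. Fanci went from 285, 312 and 279 to 139, 119 and 102, and fell by 1.28 (SE 0.16, adjusted p = 2.86e-06). An overlap of 16.0% of its exon length with Polg on the other strand limits the reading of Fanci, since Polg itself fell by 0.58 (adjusted p = 0.00533) and the protocol does not mark strand. Brip1, the helicase that binds Brca1, fell by 1.61 (SE 0.20, adjusted p = 2.37e-06), from 201, 180.4 and 152 to 72.8, 54.2 and 47.7.

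The core complex, which ubiquitinates the clamp, was split. Fanca had 327, 370.3 and 333 normalised reads in DMSO and 141, 141 and 136 in GSK. The groups were far apart relative to their spread, and Fanca fell by 1.29 (SE 0.14, adjusted p = 7.36e-07). Fancb, an X-linked subunit of the catalytic module, fell by 1.17 (SE 0.22, adjusted p = 0.00027), from 76.5, 85.9 and 99.4 to 39.8, 35.8 and 38.2. Fancc, which joins Fance and Fancf in a bridging module, fell by 0.89 (SE 0.16, adjusted p = 0.000251), from 176, 211 and 186 to 108, 106 and 93.4.

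The other core subunits did not pass. Fancl, the ubiquitin ligase itself, had 284, 256 and 307 normalised reads in DMSO and 247, 255 and 300.3 in GSK (log2 fold change -0.08, 95% interval -0.38 to 0.23, limma adjusted p = 0.714), so the groups overlapped. Fancm, the translocase that anchors the complex on DNA, had 245, 288 and 309 against 240.1, 251 and 218 (-0.24, interval -0.55 to 0.06, adjusted p = 0.209). Fance had 48.9, 68.7 and 87.4 against 112, 80.9 and 66.8, with overlapping groups (0.34, interval -0.16 to 0.84, adjusted p = 0.281). Fancg, a scaffold beside Fanca, was the only gene of the group whose GSK values all lay above its DMSO values. It had 134, 129.7 and 112 in DMSO and 142, 168 and 140.1 in GSK, and the difference of 0.26 (interval -0.09 to 0.60) did not pass (adjusted p = 0.241). Fancg was called only with array weights (0.39, adjusted p = 0.00537), whose estimation stopped before convergence. Fancf was close to the detection floor, with 6.37, 24.9 and 7.43 against 12.5, 13.8 and 10.6, which came from 6 to 29 reads per library. No change of Fancf was detectable at this depth (0.18, interval -0.84 to 1.19, adjusted p = 0.811).

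**Figure D2:**
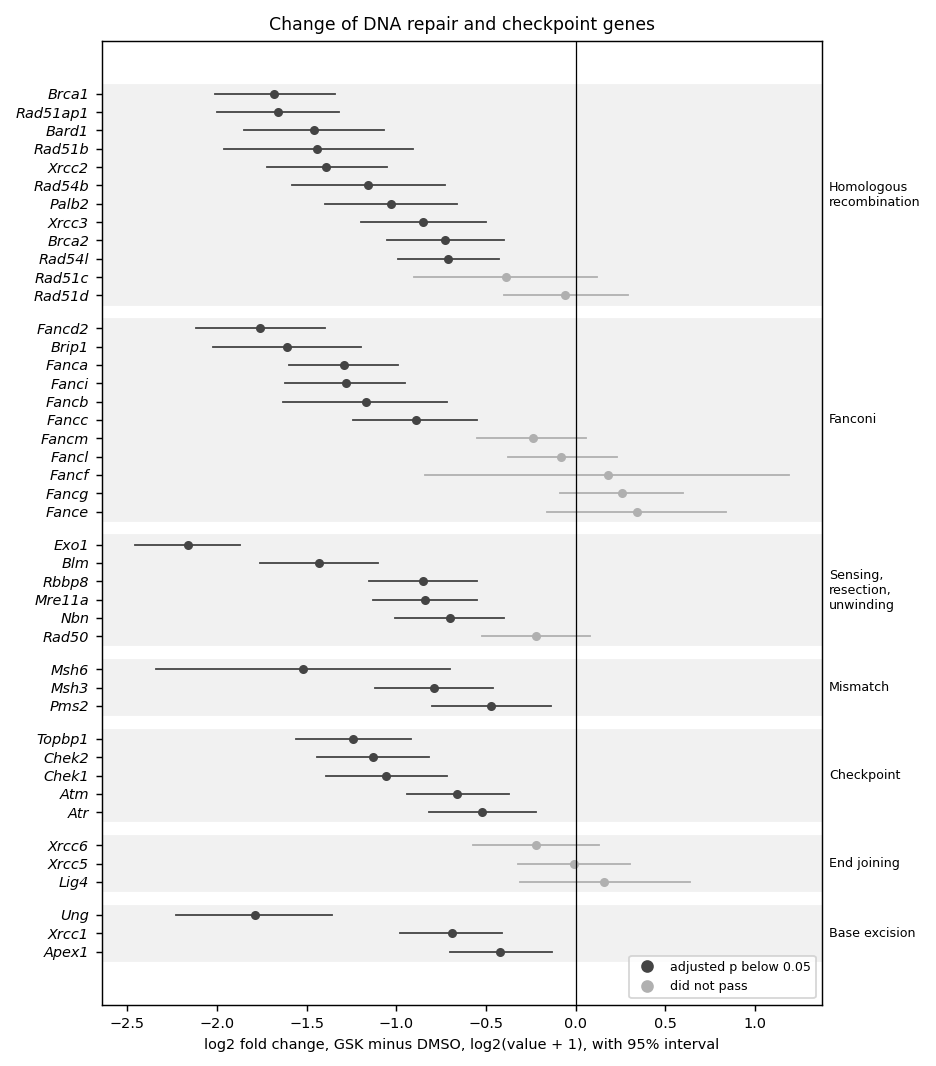
Log2 fold change of GSK against DMSO for each of the 43 genes, grouped by pathway, with bars for the 95% limma interval, dark points for genes at an adjusted p below 0.05 and pale points for the rest. Exo1 is the lowest at -2.16, and the 11 pale points lie between -0.39 and 0.34.

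Of the genes that sense, trim and unwind broken ends, 5 of 6 fell. Exo1 (chr1:175880581-175913489, plus strand), the exonuclease that carries out long resection and also removes the mismatched strand, had 597, 629 and 586 normalised reads in DMSO and 121, 135 and 149 in GSK. The GSK mean was 22.3% of the DMSO mean, the lowest share of the group, and Exo1 fell by 2.16 (SE 0.14, adjusted p = 6.18e-10). Blm, the helicase that works with it, went from 543, 575 and 518 to 242, 218 and 156, and fell by 1.43 (SE 0.16, adjusted p = 6.41e-07). Rbbp8, which encodes CtIP and starts resection, fell by 0.85 (SE 0.14, adjusted p = 9.97e-05), from 348, 315 and 311 to 190.0, 178 and 171.

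The MRN complex senses a broken end, and its 3 subunits differed in the test. Mre11a, the nuclease, had 392, 419 and 382 normalised reads in DMSO and 206, 238 and 222 in GSK, and fell by 0.84 (SE 0.14, adjusted p = 8.05e-05). Nbn, the subunit that recruits Atm, fell by 0.70 (SE 0.15, adjusted p = 0.000912), from 346, 394 and 398 to 196, 255 and 250.4. Rad50, the ATPase that tethers the ends, had 271, 253 and 294 against 219.6, 248 and 232. Its groups did not overlap, but by only a few reads, and it did not pass (log2 fold change -0.22, 95% interval -0.52 to 0.08, limma adjusted p = 0.238).

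Mismatch repair genes fell in 3 of 3 cases, against 19.1% of all tested genes, with unequal support. Msh6 (chr17:87975062-87990892, plus strand), which finds base mismatches, had 994, 1157 and 969 normalised reads in DMSO and 608, 324 and 238 in GSK. The GSK libraries were all lower but varied widely, and Msh6 fell by 1.52 with the largest SE of the called genes, 0.34 (adjusted p = 0.0146). Without GSK replicate 2 the call was lost (adjusted p = 0.0631). Msh3, which finds larger loops, went from 403, 409.8 and 388 to 278, 249.9 and 178, and fell by 0.79 (SE 0.16, adjusted p = 0.000645). Pms2, the endonuclease subunit, fell by 0.47 (SE 0.16, adjusted p = 0.0261), from 293, 357 and 267 to 205, 262 and 195. Leaving out DMSO replicate 1, DMSO replicate 2 or GSK replicate 3 took the call from Pms2, with adjusted p up to 0.163.

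All 5 checkpoint genes fell. Topbp1 (chr9:103305215-103350428, plus strand), which switches Atr on, had 604, 585 and 601 normalised reads in DMSO and 313, 255 and 199 in GSK. DMSO replicates were nearly equal and GSK replicates were all far below them, and Topbp1 fell by 1.24 (SE 0.15, adjusted p = 2.58e-06). Chek2, the kinase downstream of Atm, had 284, 262 and 286 against 123, 127 and 129, and fell by 1.13 (SE 0.15, adjusted p = 6.1e-06). Chek1, the kinase downstream of Atr, fell by 1.06 (SE 0.16, adjusted p = 3.28e-05), from 341, 329.9 and 272 to 133, 179 and 141. The apical kinases fell less. Atm, which answers to breaks, went from 454, 498 and 472 to 343, 293 and 271, and fell by 0.66 (SE 0.14, adjusted p = 0.000909). Atr, which answers to stalled forks, fell by 0.52 (SE 0.14, adjusted p = 0.0073), from 328, 344 and 346 to 269.7, 218 and 225, and lost its call without GSK replicate 2 (adjusted p = 0.055).

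End joining genes did not pass in 3 of 3 cases, where only 36.1% of all tested genes were called in either direction. With so few genes, this count cannot set the pathway apart from other genes. Xrcc5 and Xrcc6 encode the Ku dimer, which caps broken ends. Xrcc5 had 396, 378 and 312 normalised reads in DMSO and 306, 395 and 379.9 in GSK (log2 fold change -0.01, 95% interval -0.32 to 0.30, limma adjusted p = 0.972). Xrcc6 had 353, 314 and 324 against 213, 296 and 364 (-0.22, interval -0.57 to 0.13, adjusted p = 0.337). Lig4, the ligase that seals the joint, had 156, 139 and 79.9 against 157, 147 and 106 (0.16, interval -0.31 to 0.64, adjusted p = 0.609). In each of the 3 genes the groups overlapped.

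Base excision genes fell in 3 of 3 cases, against 19.1% of all tested genes. Ung (chr5:114130386-114139323, plus strand), the glycosylase that removes uracil, had 199, 288 and 315 normalised reads in DMSO and 59.2, 69.8 and 102 in GSK. In both groups replicate 1 was the lowest, the groups stayed apart, and Ung fell by 1.79 (SE 0.21, adjusted p = 1.61e-06). Xrcc1, the scaffold of strand break repair, went from 679, 825 and 729.5 to 391, 484 and 509, and fell by 0.69 (SE 0.14, adjusted p = 0.000543). Apex1, the endonuclease that cuts abasic sites, had 1963, 1919 and 1910 against 1194, 1511 and 1681, and fell by 0.42 (SE 0.14, adjusted p = 0.0237). That call was lost without any 1 of the DMSO replicates or without GSK replicate 2 (adjusted p up to 0.0823), and 61.7% of the exon length of Apex1 lies opposite Pip4p1, whose reads cannot be told apart from it there. Pip4p1 had 1743, 1651 and 1699 against 1153, 1427 and 1593, with the groups apart, and did not pass (log2 fold change -0.30, limma adjusted p = 0.0918).

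Per kilobase of exon, Apex1 was the most abundant gene of the group in both conditions, at 1358 normalised reads per kilobase in DMSO and 1028 in GSK. Its level is uncertain because of the part shared with Pip4p1. Msh6 was next in DMSO at 239, and dropped to rank 4 in GSK at 89.7, behind Xrcc5 at 141 and Nbn at 92.2. The order changed most for genes at the extremes of the fold changes. Exo1 went from rank 10 (71.7 per kilobase) to rank 27 (16.0), Fancg from rank 27 (33.0) to rank 11 (39.6), and Fance from rank 38 (21.4) to rank 18 (27.1). The lowest level was that of Fancf in DMSO (7.63) and of Rad51b in GSK (6.77). Exons of 21 of the 43 genes overlap those of another gene. Besides the cases named above, the shared part was 16.4% of exon length for Fancc with the antisense gene Gm16133, 15.4% for Rad54l with Lrrc41, 15.0% for Fancf with Gas2 and 13.7% for Fancl with Vrk2. All are on opposite strands, so reads of the shared part cannot be told apart. Lrrc41, Gas2, Vrk2 and Zfp276 did not pass the test (limma adjusted p = 0.355 to 0.67). The remaining repair genes shared at most 7.69% of their exon length with any single gene (Xrcc6 with Desi1).

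Because several of these proteins work as partners, the ratio of their levels per kilobase was compared in each library for 9 pairs. In 6 pairs the groups did not overlap, and no pair could pass, since the exact permutation p of 0.1 is the smallest that 3 against 3 allows (adjusted p = 0.15). No share over other gene pairs was computed, and for single tested genes the groups overlapped in 52.8%. Mre11a relative to Rad50 was 1.31, 1.50 and 1.18 in DMSO and 0.850, 0.870 and 0.865 in GSK, and Nbn relative to Rad50 was 2.96 ± 0.300 (SD, n = 3) and 2.12 ± 0.204. Fancd2 relative to Fanci was 0.556 ± 0.0215 in DMSO and 0.398 ± 0.0293 in GSK (SD, n = 3). Msh6 relative to Msh3 was 6.40, 7.31 and 6.48 in DMSO and 5.67, 3.36 and 3.45 in GSK, so GSK replicate 1 lay nearest to the DMSO libraries. The ratio was higher in GSK for Brca2 to Palb2 (1.26 ± 0.0402 and 1.58 ± 0.336) and for Atr to Atm (0.313 ± 0.00986 and 0.344 ± 0.0193). Both gaps were narrow, with highest DMSO values of 1.30 and 0.320 against lowest GSK values of 1.36 and 0.325. Brca1 to Bard1, Xrcc5 to Xrcc6 and Chek1 to Chek2 overlapped between the groups.

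**Figure D3:**
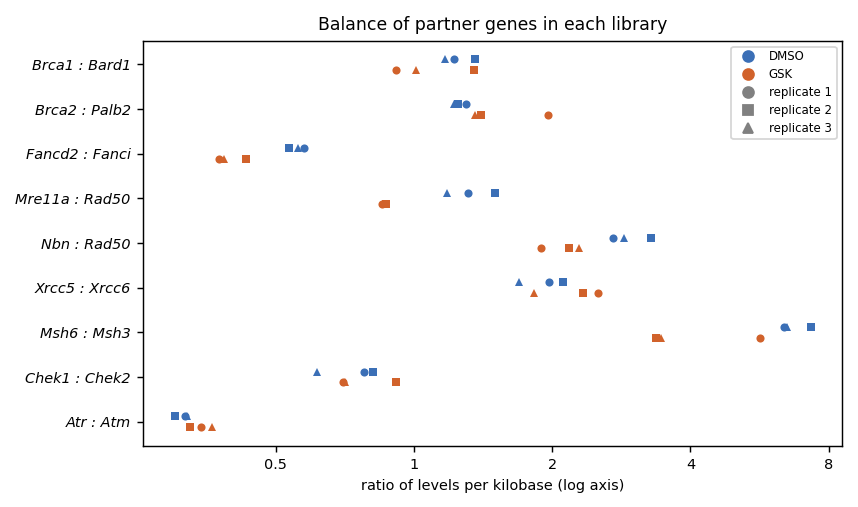
Ratio of the levels per kilobase of 9 partner pairs in each library on a log axis, DMSO in blue, GSK in orange and the replicate number as the symbol shape. Mre11a to Rad50 falls from between 1.18 and 1.50 to between 0.850 and 0.870, while Chek1 to Chek2 intermixes.

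The other genes of the same pathways were taken from a fixed list, also chosen with earlier results of these data known. Of 127 further repair genes, all tested, 41 fell (32.3%), 11 rose (8.66%) and 75 did not pass, with a median of -0.24. Falls were called for 11 of 27 further recombination genes, 4 of 13 Fanconi genes, 5 of 13 sensing and resection genes, 4 of 8 mismatch genes and 6 of 12 checkpoint genes. In those 5 pathways together a single gene rose, where 17.0% of all tested genes rose. That gene was Shld1, whose shieldin complex restrains resection (0.80, limma adjusted p = 0.00352). Dna2, the nuclease that resects beside Exo1, fell by 2.03 (adjusted p = 1.87e-08).

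Other further genes that fell are named here by the smallest p in their pathway. Pold1, the catalytic subunit of DNA polymerase delta, fell by 1.81 (adjusted p = 2.56e-09). Fen1, the flap nuclease, fell by 1.49, and Lig1, the ligase of lagging strand synthesis, fell by 1.53. The fork protection factors Clspn and Timeless changed by -1.63 and -1.40, and Rpa1, which coats single-stranded DNA, fell by 1.12. The log2 fold changes of Recql4, Cenps, Rfwd3 and Mdc1 were -1.72, -1.56, -1.20 and -1.19. Rad18, the ligase that starts translesion synthesis, fell by 1.32, and Polq, the polymerase of theta-mediated end joining, fell by 1.31. All of these passed, with adjusted p up to 1.64e-05.

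In the remaining pathways the shares of rises were read against the 17.0% of all tested genes that rose and 19.1% that fell. In base excision 6 of 20 genes fell and 3 rose (15.0%), among them Apex2 and Polb. Apex2, the relative of Apex1, had 405, 382 and 362 against 595, 805 and 723 (log2 fold change 0.87, limma adjusted p = 4.95e-05). The span of Apex2 on chromosome X contains the red blood cell gene Alas2 on the other strand, which rose by 3.61 (adjusted p = 0.00735). Shared exons were not examined for this pair, and whether Alas2 reads enter the count of Apex2 was not tested. Polb, the gap-filling polymerase, rose by 0.74 (adjusted p = 0.000533). In nucleotide excision repair 3 of 17 fell, including Ercc2 (-0.87), and 4 rose, or 23.5%, including Uvssa (0.94, adjusted p = 2.73e-05) and Ddb2 (0.72, adjusted p = 0.00246). Of 8 further end joining genes 1 fell and 2 rose, Dclre1c (0.59, adjusted p = 0.017) and Paxx (0.53, adjusted p = 0.0212). Of 9 genes of translesion synthesis and direct reversal 1 fell and 1 rose, Alkbh3 (0.39, adjusted p = 0.0338). Dclre1c and Alkbh3 lost their calls when libraries were scaled to equal totals (limma adjusted p = 0.0588 and 0.0686). Dclre1c also lost it without DMSO replicate 3 or without GSK replicate 1 (adjusted p up to 0.0987). Alkbh3 also lost it without the filter on low values (adjusted p = 0.0878) and when 1 of 5 single libraries was left out (up to 0.127). Paxx lost its call when DMSO replicate 2 or 3 or GSK replicate 3 was left out (adjusted p up to 0.124). These shares of rises lie near the share over all tested genes or rest on few genes, and the difference between pathways was not tested.

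**Figure D4:**
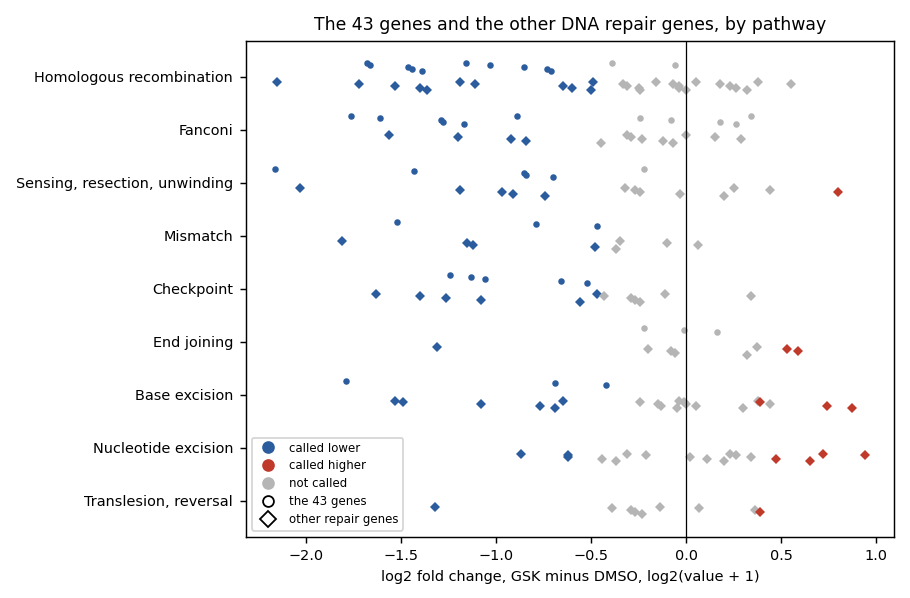
Log2 fold change of GSK against DMSO for the 43 genes and the 127 further repair genes, by pathway, with circles for the 43 genes, diamonds for the others, blue for falls, red for rises and grey for genes that did not pass. The 43 genes have a median of -0.85 and the further genes one of -0.24, and the 11 red points are all among the further genes.

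Some of the repair genes start back to back with another gene on the other strand. The genes beside the 43 were examined after values were seen. A gene on the other strand with a start within 1000 bases is described for 21 of the 43, and 17 of these neighbours were coding and tested. Beside 14 repair genes that fell, 2 neighbours fell, 6 rose and 6 did not pass, where 19.1% of all tested genes fell and 17.0% rose. Beside 3 repair genes that did not pass, 0 neighbours fell and 0 rose. These shares were not tested against the background. GENCODE and RefSeq place some starts differently, and the sequences shown for 5 pairs in which the neighbour moved are the bases outside both genes in both annotations (RefSeq promoter table, GRCm38.p6), on the strand of the repair gene, with any CCAAT box, on either strand, in capitals. Brca1 with Nbr1 lies at chr11:101551956-101552106, Palb2 with Dctn5 at chr7:122132986-122133040, Topbp1 with 1300017J02Rik at chr9:103305083-103305166, Pms2 with Aimp2 at chr5:143909848-143909900 and Atm with Npat at chr9:53536829-53536888.
Brca1: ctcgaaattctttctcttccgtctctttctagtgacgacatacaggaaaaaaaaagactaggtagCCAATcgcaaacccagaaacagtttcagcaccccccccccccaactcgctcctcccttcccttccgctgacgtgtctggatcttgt
Palb2: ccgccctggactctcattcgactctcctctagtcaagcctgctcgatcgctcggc
Topbp1: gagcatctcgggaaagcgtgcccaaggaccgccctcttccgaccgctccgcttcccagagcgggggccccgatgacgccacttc
Pms2: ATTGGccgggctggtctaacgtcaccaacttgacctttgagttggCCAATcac
Atm: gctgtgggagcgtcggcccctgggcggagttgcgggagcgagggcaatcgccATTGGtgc

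Nbr1, an autophagy receptor, had 790.3, 668 and 729 normalised reads in DMSO and 1000, 1135 and 1030 in GSK, and rose by 0.53 (SE 0.13, adjusted p = 0.00243) while Brca1 fell by 1.68. The GENCODE starts are 194 bases apart, of which 151 lie outside both genes in RefSeq also. Its GSK values all exceeded its DMSO values, the reverse of Brca1. Dctn5, a dynactin subunit, had 741, 609 and 699.8 against 959, 1020 and 1292 and rose by 0.67 (SE 0.14, adjusted p = 0.000827), while Palb2 fell by 1.03. Here 55 bases lie between the genes. Emc3, of a membrane protein insertion complex, rose by 0.52 (SE 0.14, adjusted p = 0.00522) beside Fancd2, from 419, 418 and 475 to 536, 664 and 688. The low-abundance gene 1300017J02Rik rose by 1.73 (SE 0.32, adjusted p = 0.000314) beside Topbp1, from 15.9, 23.2 and 13.9 to 35.3, 81.8 and 73.2. Mospd2 beside Fancb (0.47, adjusted p = 0.0273) and D6Wsu163e beside Rad51ap1 (0.45, adjusted p = 0.0317) also rose, but lost their calls with equal library totals (adjusted p = 0.0925 and 0.0849). In all, the calls were lost in 6 and 7 of 17 other settings, some with 1 library left out (limma adjusted p up to 0.115 and 0.128).

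Other pairs fell together. Aimp2, of the tRNA synthetase complex, fell by 0.69 (SE 0.16, adjusted p = 0.00175) beside Pms2, from 451, 481 and 462 to 222, 313 and 345, and the 53 bases shown between them hold 2 CCAAT boxes. Npat, which drives histone gene transcription, fell by 0.42 (SE 0.15, adjusted p = 0.03) beside Atm, from 460.0, 413 and 489.7 to 412, 319.8 and 292, and lost the call when 1 of 4 single libraries was left out (adjusted p up to 0.117).

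**Figure D5:**
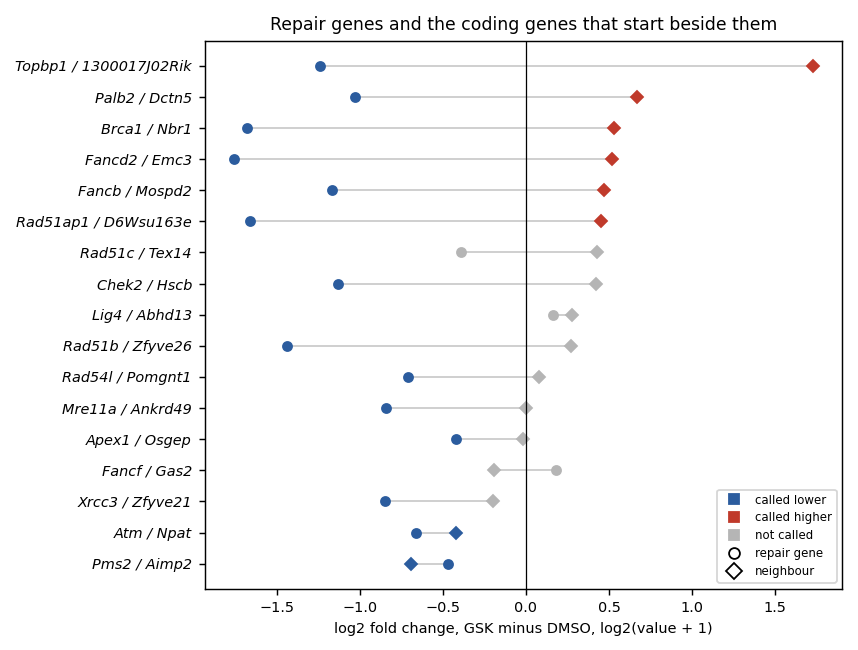
Log2 fold change (horizontal axis) of each repair gene (circle) and of the coding gene starting within 1000 bases on the other strand (diamond), 17 pairs, blue for falls, red for rises and grey for genes that did not pass. Both symbols lie below 0 for Pms2 with Aimp2, while Brca1 with Nbr1 and Topbp1 with 1300017J02Rik lie on opposite sides of 0.

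E2F factors drive many S-phase genes, so the 250 bases before each start were searched in the RefSeq promoter table, at its own starts, for the E2F motifs TTTCGCGC, TTTGGCGC, TTCGCGCC and TTGGCGCC on both strands, which overlap one another. RefSeq promoters were matched for 35 of the 43 genes. Exo1, Fancd2, Xrcc2, Rad54b, Rbbp8, Nbn, Rad50 and Rad51d had none and were not searched. They include Exo1, with the largest fall of the group (-2.16), and Fancd2 (-1.76). A match in any promoter of the gene was found for 3 of the 35, Topbp1, Msh3 and Rad51c, and for 3.03% of 11219 tested genes. Counted by promoter, a different unit, the share was 1.46% of 32851. Topbp1 and Msh3 were among 26 matched genes that fell and Rad51c among 9 that did not pass. The stretches around the matches of Topbp1 and Rad51c are given on the gene's strand with the matched letters in capitals, for Topbp1 at chr9:103305187-103305215 (plus) and Rad51c at chr11:87405005-87405034 (minus), GRCm38.p6.
Topbp1: ccgctcggttGGCGCGAAAgtcggttccc
Rad51c: acgcgcgcgtgGGCGCCAAccactccctac

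The promoter table places the start of Topbp1 downstream of the GENCODE start and of the RefSeq gene boundary used for the pairs above, so this stretch precedes the table's start but lies within the RefSeq gene. The Topbp1 stretch holds 2 overlapping matches and the Rad51c stretch 1. The bases outside both Rad51c and its neighbour Tex14 in both annotations end at 87405012. The Rad51c match therefore lies within the RefSeq boundary of Tex14, which GENCODE starts at 87405065. The CCAAT box, in either orientation, was present for 21 of the 35 genes, 17 of 26 that fell and 4 of 9 that did not pass. It was present for 40.8% of tested genes and in 33.8% of all promoters. The cell cycle homology element, searched as TTTGAA and TTCGAA, was present for 3 of 35 genes, Bard1, Atr and Apex1. It was present for 14.8% of tested genes and in 17.1% of all promoters. These are matches of letters in a short window and not evidence of binding.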

How the data were processed

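Each deposited signal value, as made by the authors, is a gene's read count divided by a size factor of its library, in 1 table for all 6 libraries. The submitters' processing notes name STAR, DESeq, GRCm38 and mm10 without a role or version. The sources used here do not give the read counter, the annotation release or the strand setting, and Smart-seq2 libraries carry no strand mark. The table held 118098 rows for 32285 genes, of which 1 row per gene was kept, and 2304 genes had no read. Every value was a whole multiple of its library's smallest one within 0.01, so whole reads were recovered.

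The main test was limma (3.58.1, R 4.3.3), using trended, robust priors on log2(value + 1), for 15073 genes averaging at least 10. Group was the sole term, and p-values were adjusted over all these genes by Benjamini-Hochberg, with calls below 0.05. Fold changes are on that scale, which understates changes of low genes. The script was tested on simulated data. Coordinates and exon lengths came from GENCODE vM21 (GRCm38), and promoter sequences from RefSeq (GRCm38.p6). Values per library were set against each other by exact permutation (two-sided, scipy 1.17.1). As alternatives, the pseudocount, filter, scaling and threshold were changed, array weights or a replicate block were used, libraries were left out singly, and edgeR 4.0.16 or DESeq2 1.42.0 was run on recovered reads. The genes and lists were chosen with earlier results of these data known. All 43 genes are named, and of the wider repair list up to 2 called genes that fell and 2 that rose per pathway, by smallest p. Some genes that this rule or the search for neighbours gave are not reported here.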

Additional observations from a re-analysis of the deposited data

How the results depend on the processing

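Over 17 other settings 29 to 33 of the 43 repair genes fell, 32 by edgeR and by DESeq2, and 28 of the 32 called genes kept their call in every setting that tested them. Rad51b and Fancb were not tested at a mean of at least 100, where 30 genes fell. Msh6, Pms2, Atr and Apex1 lost a call in at least 1 setting, and no called repair gene changed direction. With single libraries left out, 29 to 32 repair genes, 39 to 49 further repair genes and 2246 to 3227 of all genes fell, and 0, 7 to 15 and 1748 to 3071 rose. Array weights, whose estimation stopped before convergence, called 4651 genes, 24 further repair genes and 1 repair gene (Fancg) higher. An adjusted p below 0.01 left 1562 genes and 6 further repair genes higher, as fewer genes pass a stricter limit. Genes that had not passed changed sign in places. Fancf was at -0.12 by edgeR, -0.08 by DESeq2 and between -0.16 and 0.75 with single libraries left out, and Xrcc5 was at 0.09 with array weights and between -0.11 and 0.10. Rad51d ranged from -0.11 to 0.02 and Lig4 from -0.13 to 0.35 with single libraries left out. The cause was not tested. Same-numbered libraries did not deviate together (r = 0.0131, -0.0236 and 0.0529), and a replicate block gave 32 repair genes lower and 0 higher, 42 and 13 further repair genes, and 2980 and 2662 genes in all. The low depth of Fancf, at 6 to 29 reads, limits its estimate.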
